A study of Homo sapiens with 2 samples.

Results

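The genes described here drive and carry out the cell division cycle: regulators of the G1 phase, genes of DNA replication and genes of mitosis. They were taken from a list of 57 gene symbols, and a member was any gene for which the platform annotation gave at least 1 probe set that symbol alone. Such a probe set was found for 56 genes, with 125 probe sets in all, of 19775 genes with a probe set of their own on the array. CDKN2C had none and was not analysed here. The members were split by role into 19 G1 control genes, 15 replication genes and 23 mitotic genes.

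Expression had been profiled in PLC8024, a human hepatocellular carcinoma (HCC) line, in cells that flow cytometry had sorted as CD133-. One array came from such cells transduced with a lentivirus carrying the empty vector, and 1 from such cells transduced with a lentivirus carrying miR-130b, which the source label of that array calls a transfection. Both groups share the cell line, the sort and a lentiviral transduction, and each is 1 culture on 1 array. No replicate error exists, no p-value was computed, and each difference below is a difference between these 2 arrays.

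In a dividing cell, D-type cyclins with CDK4 and CDK6, and then E-type cyclins with CDK2, phosphorylate the retinoblastoma protein RB1 and so release E2F factors, which switch on replication genes. INK4 inhibitors (the products of CDKN2A, CDKN2B and CDKN2C) block CDK4 and CDK6, while p27 and p57 (CDKN1B and CDKN1C) inhibit a wider range of CDKs. Mitotic genes follow later through FOXM1, MYB-type factors and the DREAM complex, which act at CHR elements. In liver tumours this program is often highly active.

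The agent of the comparison is miR-130b, a microRNA whose dominant strand shares its seed, bases 2 to 8, with other microRNAs of its family. The mature sequences are shown because that shared seed is the part through which a microRNA of this family pairs with transcripts. They are credited to RefSeq, build GRCh38.p14, and are written 5′ to 3′ with bases 2 to 8 in capitals.
hsa-miR-130b-3p, chr22:21653354-21653375, plus strand: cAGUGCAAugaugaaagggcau
hsa-miR-301a-3p, chr17:59151149-59151171, minus strand: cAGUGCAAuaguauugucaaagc
hsa-miR-301b-3p, chr22:21653025-21653047, plus strand: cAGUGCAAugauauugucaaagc
hsa-miR-454-3p, chr17:59137787-59137809, minus strand: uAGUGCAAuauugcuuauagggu
The seed was AGUGCAA in each of these 4. The other strand of the hairpin carries a different seed.
hsa-miR-130b-5p, chr22:21653316-21653336, plus strand: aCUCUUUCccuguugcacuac

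The replication and mitotic classes differ in the sequence in front of their genes, a property that the split by role did not use. RefSeq promoter windows, from 250 bases before to 50 bases after each start in build GRCh38.p14, were found for 43 of the 57 listed genes. Searched on both strands were the E2F site, spelled TTTCCCGC or TTTGGCGC or TTTCGCGC or TTTGCCGC, the CHR element, spelled TTTGAA, and the CCAAT box, whose 5 letters are its name. An E2F site lay in a window of 10 of 12 replication genes (83.3%), 4 of 13 G1 control genes (30.8%) and 2 of 18 mitotic genes (11.1%), against 6.30% of the 10665 measured genes with a window and 3.99% of all 27305 genes with a window. A CHR element lay in a window of 11 of 18 mitotic genes (61.1%), 1 of 12 replication genes (8.33%) and 1 of 13 G1 control genes (7.69%), against 13.8% of measured genes and 18.2% of all genes. The CCAAT box was found in 16 of 18 mitotic genes (88.9%), 9 of 12 replication genes and 6 of 13 G1 control genes (46.2%), against 42.5% of measured genes and 39.7% of all genes. In the further lists of genes of the same processes, 14 of 37 further replication genes had an E2F site and 2 a CHR element, while 2 of 42 further mitotic genes had an E2F site and 30 a CHR element, and 2 of 20 further G1 control genes had an E2F site and 5 a CHR element. A gene with several windows counted once if any of them held a match, E2F and CHR matches overlapped in 0 windows, and CCAAT matches overlapped CHR matches in 42 and E2F matches in 5 of the 35116 windows. A match is a string of letters and not a measured binding site.

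Stretches of 150 bases that end just before the start illustrate these classes. Capitals mark the E2F, CHR and CCAAT matches that lie wholly within the stretch, as their reverse complement where the match is on the other strand (ATTGG for CCAAT). PLK1, CCNB2 and CDC20 are mitotic genes, PCNA and POLA1 replication genes, and E2F1 and CDKN2B G1 control genes, the last with the largest difference of any member.
PLK1, chr16:23678739-23678888, plus strand: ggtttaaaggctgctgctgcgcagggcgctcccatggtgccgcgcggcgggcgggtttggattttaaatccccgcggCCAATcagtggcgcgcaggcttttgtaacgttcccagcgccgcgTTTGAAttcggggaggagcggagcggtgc
CCNB2, chr15:59104996-59105145, plus strand: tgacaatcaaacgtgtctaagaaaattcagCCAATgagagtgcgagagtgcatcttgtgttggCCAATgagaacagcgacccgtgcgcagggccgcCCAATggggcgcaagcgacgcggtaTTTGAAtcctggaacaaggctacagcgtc
CDC20, chr1:43358831-43358980, plus strand: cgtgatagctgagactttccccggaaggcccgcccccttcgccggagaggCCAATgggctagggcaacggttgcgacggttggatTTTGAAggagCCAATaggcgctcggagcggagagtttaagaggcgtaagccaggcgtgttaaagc
PCNA, chr20:5126623-5126772, minus strand: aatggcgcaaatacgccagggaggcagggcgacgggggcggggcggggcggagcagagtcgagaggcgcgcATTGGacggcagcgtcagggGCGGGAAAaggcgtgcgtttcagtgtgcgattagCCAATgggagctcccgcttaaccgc
POLA1, chrX:24693768-24693917, plus strand: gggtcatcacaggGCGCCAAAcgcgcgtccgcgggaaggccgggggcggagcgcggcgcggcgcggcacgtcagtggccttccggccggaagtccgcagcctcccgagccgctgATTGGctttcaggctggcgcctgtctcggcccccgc
E2F1, chr20:33686386-33686535, minus strand: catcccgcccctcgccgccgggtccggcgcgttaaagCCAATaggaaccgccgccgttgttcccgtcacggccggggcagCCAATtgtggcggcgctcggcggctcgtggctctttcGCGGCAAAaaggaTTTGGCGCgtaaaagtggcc
CDKN2B, chr9:22009306-22009455, minus strand: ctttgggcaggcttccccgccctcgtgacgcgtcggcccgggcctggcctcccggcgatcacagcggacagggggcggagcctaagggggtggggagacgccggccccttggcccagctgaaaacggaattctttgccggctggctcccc
In PLK1 the CHR element ran from 29 to 24 bases before the start and the CCAAT box from 73 to 69, and the CHR element of CCNB2 lay at the same distance from its start. PCNA had its E2F site from 59 to 52 bases before the start and POLA1 from 137 to 130. E2F1, itself an E2F factor gene, had 2 E2F sites within its last 33 bases. No match to the 3 motifs was found in the window of CDKN2B, nor in those of CDKN2A, CCNE1, CDK4, CDK6, RB1 and CENPE.

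**Figure D1:**
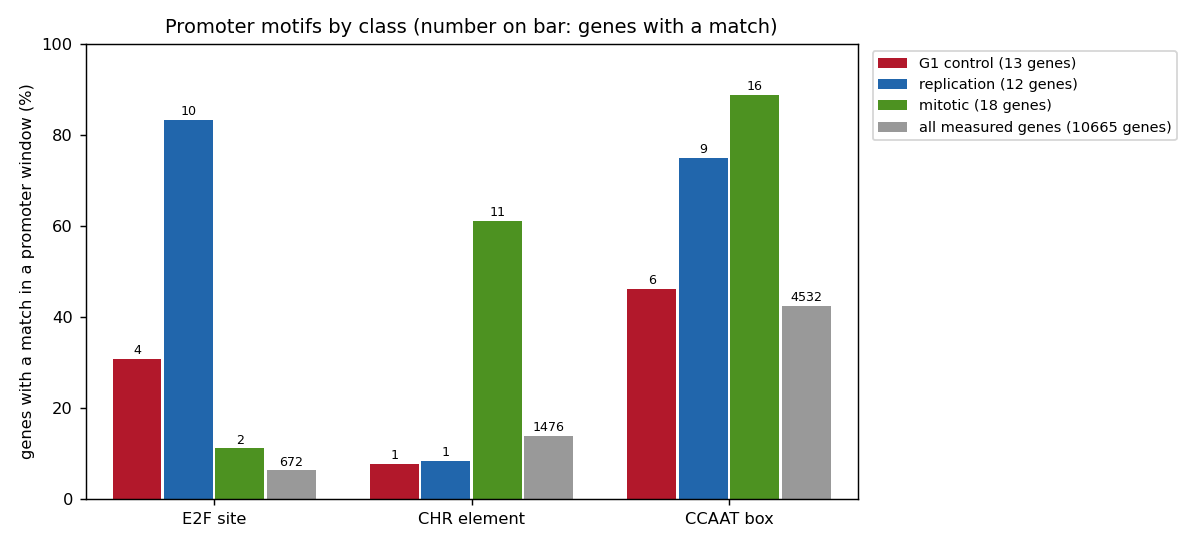
Percent of genes with at least 1 match to each motif in a RefSeq promoter window (vertical axis), for the G1 control, replication and mitotic genes and for all measured genes; the number on each bar is the count of genes with a match. The E2F bar is tallest for replication genes (10 of 12) and the CHR bar for mitotic genes (11 of 18).

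A gene counted as measured when the brighter of its 2 array values reached 4.88 on the log2 scale, the median over every probe set but the controls, and its brightest measured probe set then stood for it. By that rule 55 members were measured, 17 in the G1 control class and all of the 15 replication and 23 mitotic genes, of 13260 measured genes in all. CCND2, a D-type cyclin gene, was below this floor in each of its 4 probe sets, between 3.38 and 4.81 in both arrays. Of the 55, 50 had a mean at or above 6.98, the 75th percentile of all values. The sizes counted throughout were at least 1.2-fold (0.26 on the log2 scale) and at least 1.5-fold (0.58 on the log2 scale). They are rules of size and not tests. The only error these arrays offer is technical: probe sets that name 1 gene differed from each other with a pooled SD of 0.202 over 6047 genes, and it holds no variation between cultures.

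The division program as a whole differed little between the arrays. With miR-130b 8 of the 55 measured members were lower by 1.2-fold or more and 4 were higher by that much, against 8.46% and 9.31% of all measured genes. At 1.5-fold 1 member was lower, the CDK inhibitor gene CDKN2B, and 1 was higher, the replication clamp unloader gene ATAD5, against 2.68% and 0.294% of all measured genes. The shares of members at 1.2-fold were 14.5% lower and 7.27% higher, which comes to a few genes more or fewer than in the background. A difference over the probe-set SD of 0.202 was seen for 15 members, or 27.3%, and for 3711 of the 13260 measured genes. Taken as the miR-130b value minus that of the empty vector, the median log2 difference was 0.01 for the members and 0.03 for all measured genes, with 26 members lower and 29 higher in sign. In bulk RNA a smaller share of cells in a phase and less RNA per cell cannot be told apart.

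The 3 classes had medians close to each other. On the log2 scale the median difference was -0.01 for the 17 G1 control genes, 0.05 for the 15 replication genes and 0.01 for the 23 mitotic genes. The widest gap between any 2 of these medians, G1 control against replication, was -0.05 on the log2 scale. At least 1.2-fold lower were 3 G1 control genes (CDKN2B, CCND1, CDKN2A), 2 replication genes (MCM4, MCM7) and 3 mitotic genes (CDC25B, TPX2, PLK1). These were 17.6%, 13.3% and 13.0% of the measured genes of their classes, against 8.46% of all measured genes. At least 1.2-fold higher were 1 G1 control gene (CCNE1), 2 replication genes (ATAD5, CDT1) and 1 mitotic gene (AURKA). These were 5.88%, 13.3% and 4.35%, against 9.31% of all measured genes. The classes differed in how widely their genes were scattered: the SD over genes was 0.41 for G1 control, 0.27 for replication and 0.18 for mitosis, and 0.33 over all measured genes. Without CDKN2B the G1 control value was 0.23, and without ATAD5 the replication value was 0.21. The span from the lower to the upper quartile was 0.28, 0.29 and 0.22 on the log2 scale in these classes and 0.23 over all measured genes.

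**Figure D2:**
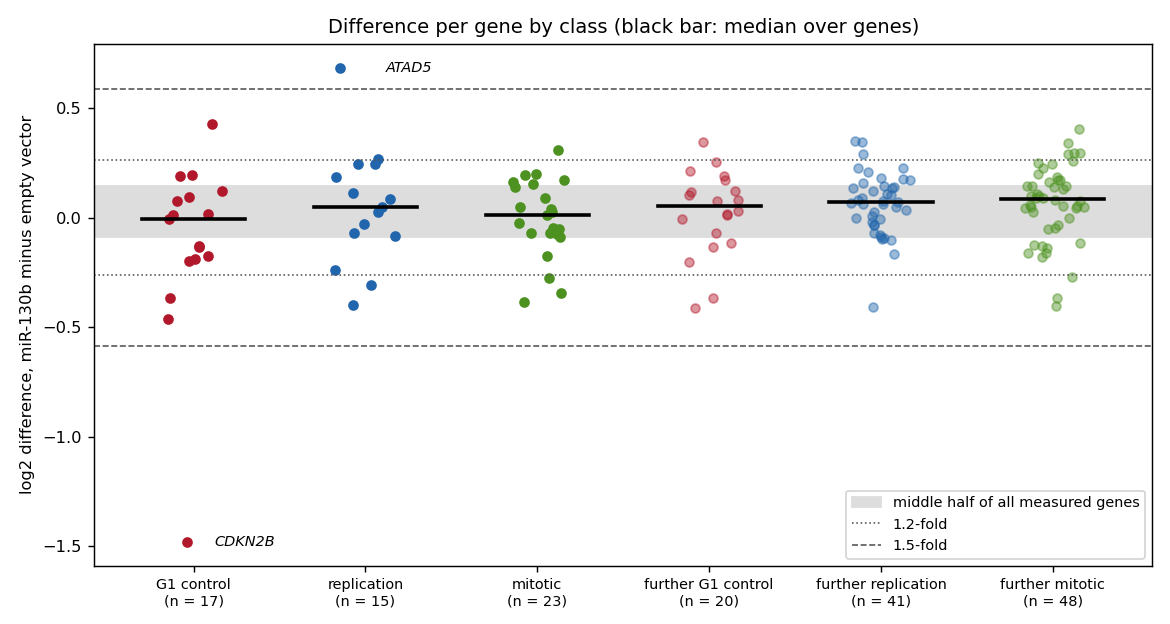
Log2 difference, miR-130b minus empty vector, for each measured gene of the 3 classes and of 3 further lists of genes of the same processes (vertical axis); black bars are medians over genes, the grey band runs from the lower to the upper quartile of all measured genes, and dotted and dashed lines mark 1.2-fold and 1.5-fold. CDKN2B and ATAD5 are the members beyond 1.5-fold, and the medians of the 3 classes lie between -0.01 and 0.05.

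The CDK inhibitors held the largest difference among the members. CDKN2B, which encodes p15, an inhibitor of CDK4 and CDK6 that TGF-beta induces in epithelial cells, stood at 5.78 with the empty vector and 4.30 with miR-130b in its brightest probe set. Its second probe set stood at 4.92 and 4.31. Both were lower with miR-130b, with log2 differences of -1.48 and -0.61. With miR-130b both were under the floor, so the size of the difference is uncertain, and CDKN2B counted as measured only through its empty vector values. The floor rule thus fixed the lower sign of both probe sets.

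CDKN2A, which encodes p16 and the p53 activator ARF, stood at 8.77 and 8.41 in its brightest probe set, a difference of -0.36. That probe set carries the suffix _x_at, which marks probes that may also match other transcripts, and a second one without it stood at 6.66 and 6.43. Both measured CDKN2A probe sets were thus lower with miR-130b, and the third lay just under the floor at 4.86 and 4.87. CDKN2A and CDKN2B lie next to each other on chromosome 9, so their neighbours were looked up after these values were seen. MTAP, the methylthioadenosine phosphorylase gene on the CDKN2A side, differed by -0.18 and -0.44 in its 2 measured probe sets. The second of these stood at 5.15 and 4.71 and counted as measured only through its empty vector value. MTAP probe sets under the floor in both arrays differed by 0.13, -0.23, 0.23 and 0.03. The antisense RNA gene CDKN2B-AS1 and DMRTA1 on the other side were under the floor in both arrays.

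The CIP/KIP inhibitors gave a mixed picture. CDKN1B, which encodes p27, stood at 8.84 and 8.85, a difference of 0.01. CDKN1C, which encodes p57, stood at 5.44 and 5.26 in its brightest probe set, and its 2 other measured probe sets differed by -0.48 and -0.53. All 3 measured CDKN1C probe sets were lower with miR-130b, and each was close to the floor. The 2 dimmer ones carry the suffix _x_at and were under the floor with miR-130b, at 4.47 and 4.74. They counted as measured only through their empty vector values, so the floor rule fixed their lower sign. Of the 4 measured inhibitor genes, CDKN1B alone was not lower in sign. For CDKN2B, measured only through its empty vector values, the floor rule fixed the lower sign as well.

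Among the G1 cyclins, D1 and E1 lay on opposite sides of 0. CCND1, the cyclin D1 gene, stood at 9.29 with the empty vector and 8.82 with miR-130b, and its second probe set at 7.26 and 6.81. The 2 differences, -0.46 and -0.45, were nearly equal. CCNE1, the cyclin E1 gene, stood at 8.10 and 8.53, higher by 0.43 on the log2 scale, on 1 measured probe set. A difference as low as that of CCND1 was found for 3.61% of measured genes and one as high as that of CCNE1 for 1.64%. The gap between them was 0.89 on the log2 scale. CCND3, the cyclin D3 gene, differed by 0.08 and CCNE2, the cyclin E2 gene, by -0.13, with CCNE2 close to the floor at 5.14 and 5.01.

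The kinases these cyclins bind, and the RB1-E2F switch they act on, stayed within 1.2-fold. CDK4 stood at 10.36 and 10.16, a difference of -0.20, and CDK6 at 9.52 and 9.71, a difference of 0.19. The other measured CDK6 probe sets differed by 0.11 and -0.05. The brightest CDK2 probe set differed by -0.01 and a dimmer one by -0.21. RB1 differed by -0.19, E2F1 by 0.09, E2F2 by -0.14 and E2F3 by 0.02. E2F8, an atypical E2F that represses transcription, differed by 0.12. CDC25A, the phosphatase that activates CDK2, stood at 9.32 and 9.52, a difference of 0.19, while its 2 dimmer probe sets differed by -0.11 and -0.06.

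**Figure D3:**
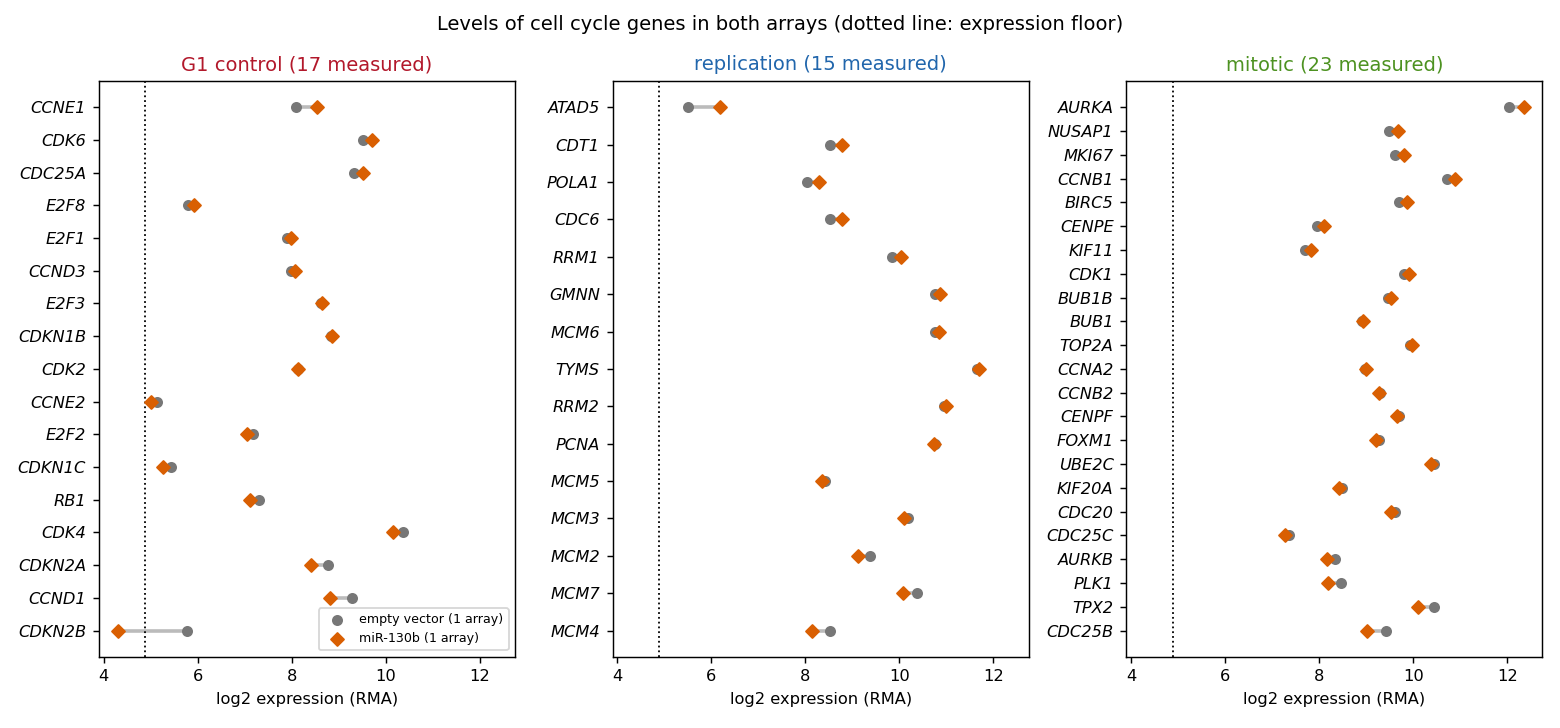
Log2 expression (horizontal axis) of every measured member in the empty vector array (circle) and the miR-130b array (diamond), by class and sorted by difference; the dotted line is the expression floor of 4.88. For most genes the symbols touch, and CDKN2B is the only member whose brightest probe set crosses the floor, from 5.78 to 4.30.

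Within replication, MCM4, MCM7 and MCM2, subunits of the MCM helicase, had the lowest differences. Groupings by role within a class were drawn up after the values were seen. Of the 6 MCM genes, 5 were lower in sign, against 41.9% of all measured genes, with a median difference of -0.16 on the log2 scale. MCM6 was the exception. MCM4 stood at 8.53 with the empty vector and 8.13 with miR-130b, a difference of -0.40, but its 4 other measured probe sets differed by 0.01, -0.15, 0.00 and -0.07. MCM7 stood at 10.38 and 10.07, a difference of -0.31, with -0.09 in its other probe set. MCM2 stood at 9.37 and 9.13, a difference of -0.24. The remaining subunits differed by -0.08 (MCM3), -0.07 (MCM5) and 0.08 (MCM6), and with the mean of the probe sets of a gene the same 5 subunits were lower in sign, from -0.24 for MCM2 to -0.08 for MCM3.

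CDC6, CDT1 and GMNN, which govern helicase loading, were higher in sign in their brightest probe sets, as were 7440 of all 13260 measured genes. CDC6, which with CDT1 loads the helicase at origins, stood at 8.52 and 8.77, and its second probe set at 8.26 and 8.41. Both CDC6 probe sets were higher, by 0.24 and 0.15 on the log2 scale. CDT1 stood at 8.52 and 8.78 in its brightest probe set, a difference of 0.27, but the other one went the opposite way, from 6.61 to 6.40. That brightest probe set carries the suffix _x_at. GMNN, which encodes the CDT1 inhibitor geminin, stood at 10.75 and 10.87, a difference of 0.11.

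At the fork, ATAD5 stood apart from the other replication genes. ATAD5, which helps take the PCNA clamp off DNA, stood at 5.50 with the empty vector and 6.18 with miR-130b, 1.61-fold higher. It rests on 1 probe set below the 75th percentile of all values, and 0.0905% of measured genes had a difference as high or higher. ATAD5 had the highest difference of the 55 measured members, in a list chosen with earlier results known, so this share is only a description. PCNA, the sliding clamp, stood at 10.76 and 10.73, a difference of -0.03. POLA1, the catalytic subunit of DNA polymerase alpha, stood at 8.03 and 8.28, a difference of 0.25.

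The genes of deoxynucleotide supply differed by less. For TYMS, thymidylate synthase, the brightest probe set differed by 0.05 and a dimmer measured one by -0.29. The ribonucleotide reductase genes RRM1 and RRM2 differed by 0.18 and 0.03, and by -0.11 and -0.08 in their dimmer probe sets. In all 3 genes the 2 measured probe sets had opposite signs.

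The core mitotic engine was nearly level between the arrays. CDK1, the mitotic kinase, stood at 9.81 and 9.90, and its 2 other measured probe sets differed by 0.04 and -0.06. Its cyclins differed by 0.01 (CCNA2), 0.17 (CCNB1) and -0.03 (CCNB2). MKI67, which encodes the proliferation marker Ki-67, stood at 9.62 and 9.81 in its brightest probe set, a difference of 0.20, and its 3 other probe sets differed by 0.05, -0.15 and -0.02. The mean over the 4 MKI67 probe sets was 0.02. TOP2A, DNA topoisomerase II alpha, differed by 0.03, and FOXM1, the transcription factor gene of the mitotic program, by -0.05.

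Mitotic kinases and their activators were spread on both sides of 0. AURKA, the centrosome and spindle pole kinase Aurora A, stood at 12.04 with the empty vector and 12.35 with miR-130b. Its 2 other probe sets stood at 11.25 and 11.52 and at 6.18 and 6.36, so all 3 were higher, by 0.31, 0.26 and 0.18. TPX2, which activates Aurora A on spindle microtubules, stood at 10.45 and 10.11, a difference of -0.34. The gap between AURKA and TPX2 was 0.65 on the log2 scale.

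PLK1, the polo-like kinase of mitotic entry, stood at 8.46 and 8.19, a difference of -0.28. CDC25B, a phosphatase that starts CDK1 activation, stood at 9.41 and 9.03, a difference of -0.39, and CDC25C differed by -0.09. AURKB, the kinase of the chromosomal passenger complex, stood at 8.34 and 8.17, a difference of -0.17. TPX2, PLK1, CDC25B and AURKB each rest on 1 measured probe set. The passenger complex gene BIRC5 (survivin) had 0.16 at its brightest probe set, and its 3 other probe sets ranged from -0.23 to 0.09.

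Of the 6 spindle and kinetochore genes TPX2 alone was beyond 1.2-fold, and the checkpoint genes were within it. The spindle checkpoint kinase genes BUB1 and BUB1B differed by 0.04 and 0.05. CENPE, a kinetochore motor gene, differed by 0.16, CENPF, a kinetochore protein gene, by -0.05, and the motor genes KIF11 and KIF20A by 0.14 and -0.07. NUSAP1, which encodes a spindle microtubule bundler, stood at 9.49 and 9.69 in its brightest probe set and at 7.94 and 7.70 in the other, so its differences of 0.20 and -0.24 had opposite signs. CDC20 and UBE2C, an activator and the E2 enzyme of the anaphase-promoting complex, both differed by -0.07.

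Dimmer probe sets of a member mostly had a lower difference than its brightest one. Of 28 members with at least 2 measured probe sets, 14 had probe sets of both signs, as had 2848 of 6047 of all measured genes with as many. Of their 41 dimmer probe sets, 31 (75.6%) had a lower difference than the brightest probe set of that gene, against 55.6% of 10092 over all measured genes, and the median gap was -0.11 for the members and -0.03 for all genes. In the mitotic class 16 of 18 dimmer probe sets were lower than the brightest, in the G1 control class 9 of 12 and in the replication class 6 of 11. Among the further genes of these processes 52 of 72 were. Among the RNA quality controls the 3′ to 5′ signal ratio was 2.41 with miR-130b and 1.95 with the empty vector for ACTB, and 1.52 and 1.37 for GAPDH. Where in the transcripts the members' probe sets lie was not analysed here, and the part of the 3′ to 5′ difference in this result was not tested.

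**Figure D4:**
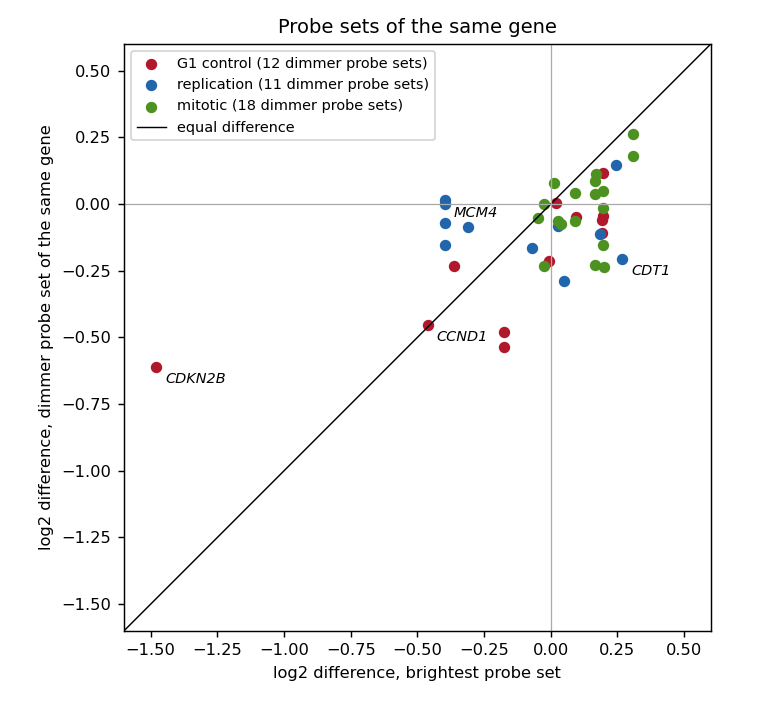
Log2 difference of each dimmer measured probe set (vertical axis) against that of the brightest probe set of the same gene (horizontal axis), for the 28 members with at least 2 measured probe sets; the diagonal marks equal differences. Of the 41 points 31 lie below the diagonal, and both CDKN2B and CCND1 are negative on both axes. The floor rule fixed the signs of CDKN2B.

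Other genes of the same processes were listed by role for a wider view. Among 20 measured further G1 control genes, 2 (10.0%) were lower and 1 (5.0%) was higher by at least 1.2-fold, with a median of 0.05 on the log2 scale. Over all measured genes these shares were 8.46% and 9.31%. CCNG2, the cyclin G2 gene, stood at 7.92 and 7.51, a difference of -0.41, but its probe sets ranged from -0.70 to 0.11. SKP2, whose product marks p27 for destruction, stood at 9.12 and 8.75, and its 3 measured probe sets differed by between -0.92 and -0.25. RBL2, which encodes the RB1 relative p130, stood at 7.38 and 7.72, higher by 0.35, with -0.09 in its other probe set.

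Among 41 measured further replication genes, 1 (2.44%) was lower and 3 (7.32%) were higher by at least 1.2-fold, with a median of 0.07. The shares over all measured genes were 8.46% and 9.31%. TK1, thymidine kinase, stood at 8.73 and 8.32, a difference of -0.41, with -0.32 in its other probe set. CHAF1B, a subunit of the chromatin assembly factor, stood at 7.86 and 8.21, and POLD3, a subunit of DNA polymerase delta, at 7.15 and 7.50, differences of 0.35 and 0.34.

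Among 48 measured further mitotic genes, 3 (6.25%) were lower and 5 (10.4%) were higher by at least 1.2-fold, with a median of 0.09. The shares over all measured genes were 8.46% and 9.31%. KIF18A, a motor gene of chromosome alignment, stood at 6.44 and 6.04, a difference of -0.40. SGO2, a shugoshin gene that protects centromeric cohesion, stood at 8.11 and 8.51, a difference of 0.40, and SMC4, a condensin subunit gene, at 9.66 and 9.29, a difference of -0.37. None of the 109 measured further genes reached 1.5-fold in its brightest probe set. Lower in sign were 29.4% of them, against 47.3% of the members and 41.9% of all measured genes. Of 10 measured genes of quiescence and cell cycle exit, 2 were at least 1.2-fold higher and 0 lower, with a median of 0.01. Over all measured genes 9.31% were higher and 8.46% lower by that much. That list shares CDKN1B and CDKN1C with the members and RBL2 with the further G1 control genes.

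Members were also set side by side by promoter motif. The median difference was 0.09 for the 16 measured members with an E2F site and 0.01 for the 26 with a window but no match. With a CHR element it was 0.03 over 13 members, and 0.03 over the 29 without. With a CCAAT box it was 0.03 over 30 members, and -0.04 over the 12 without.

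The labelled cell type was checked on marker genes. All 8 hepatocyte and liver tumour cell markers (ALB, AFP, APOA1, APOB, TTR, GPC3, KRT8 and KRT18) were measured, with a median of 11.7 with the empty vector and 11.0 with miR-130b on the log2 scale. TTR stood at 9.26 and 5.92, KRT8 differed by -1.05 and ALB by -1.03, and APOB alone was higher, by 0.04. Of 4 leukocyte markers LYZ alone was measured, at 9.78 and 9.46, with PTPRC, CD3E and CD14 below the floor in both arrays. Of 4 endothelial markers PECAM1 (8.51 and 8.72) and TEK (5.53 and 5.69) were measured, and VWF and CDH5 were below the floor. Of 5 fibroblast or stromal markers 4 were measured, and COL3A1 was below the floor. COL1A2 stood at 7.98 and 4.90, a difference of -3.08. COL1A1 stood at 7.20 and 7.12, PDGFRB at 5.44 and 5.36, and THY1 at 5.17 and 5.42. The log2 values of a list, with genes under the floor included, summed to 94.9 and 88.1 for hepatocyte and liver tumour cell markers. They summed to 22.9 and 22.6 for leukocyte, 22.0 and 22.1 for endothelial and 30.2 and 26.8 for fibroblast or stromal markers. PROM1, which encodes the sort marker CD133, stood at 9.19 and 6.07 in these cells labelled CD133-. Poly-A spike-in transcripts had 26 of 27 probe sets lower with miR-130b, at a median difference of -0.24, and hybridisation spike-ins 1 of 18, at a median of 0.09. The part of these in the members' differences was not tested.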

How the data were processed

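Total RNA of 2 PLC8024 cultures was extracted with Trizol and biotin-labelled, per the labels' protocols. The authors deposited 1 log2 expression value for each of 54675 probe sets and array. The submitters' processing notes name RMA, with no version. Not given in the sources used here are its settings and which arrays it normalized jointly. RMA leaves some background in dim values and gives no detection call.

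Groups came from the sample titles. GEO's platform annotation gave 1 symbol for 41091 of the 54613 probe sets that are not controls, several for 1801 and none for 11721. Differences are the miR-130b value minus the empty vector value, both on the deposited log2 scale. A gene was represented by its brightest probe set above the floor of 4.88. With 1 array a group, their number limits precision.

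The members and lists were chosen with earlier results of these data known. Both array values are given for the 7 members of each class with the largest difference, for members beyond 1.5-fold or with probe sets more than 0.5 apart, for CDK1, MKI67 and PCNA, and for the 3 largest differences of each further list. Other members are named with their differences or their values. Alternatives dropped the floor, set it to the 75th percentile, took the mean of a gene's probe sets, left out _x_at and _s_at probe sets, or centred the differences by a loess curve (span 0.3) or by the median. The computation was tested on simulated data. Sequences are from RefSeq tables. Python 3.11.15, numpy 2.4.6, pandas 2.3.3, statsmodels 0.14.6 and matplotlib 3.10.9 were used.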

Additional observations from a re-analysis of the deposited data

Results flagged for a closer look

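Probe sets of members below the floor in both arrays entered no comparison above, and 4 of these 29 were higher with miR-130b by 1.2-fold or more. A TYMS probe set stood at 4.09 with the empty vector and 4.50 with miR-130b, a log2 difference of 0.41. An E2F2 probe set stood at 4.03 and 4.36, a difference of 0.33. A pair of BUB1 probe sets stood at 3.43 and 3.73 and at 3.69 and 3.98, differences of 0.30 and 0.29. The brightest probe sets of these genes differed by 0.05, -0.14 and 0.04. At least 1.2-fold lower were 2 of the 29, a CDC25C probe set with 4.65 and 4.14, a difference of -0.51, and a CDKN1C probe set with a difference of -0.31. Among the 17739 probe sets of all genes below the floor, 957 were at least 1.2-fold lower and 6.50% at least 1.2-fold higher, and 13.8% of the members' 29 were higher by that much.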

How the results depend on the processing

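No paired analysis was possible because each condition holds 1 array, and no array could be left out. Under the 6 alternatives the medians and the gaps between medians of the 3 classes spread as follows: the G1 control median ranged from -0.11 to 0.01, the replication median from -0.03 to 0.05 and the mitotic median from -0.04 to 0.04 on the log2 scale. The order of the medians was not fixed, since mitotic minus replication ranged from -0.06 to 0.03 and mitotic minus G1 control from -0.0017 to 0.09. G1 control minus replication alone kept its sign, from -0.08 to -0.02. The count of members beyond 1.5-fold was 0 with the floor at the 75th percentile, which removes CDKN2B and ATAD5. Members at least 1.2-fold higher numbered 2 with the mean of probe sets and 2 without _x_at and _s_at probe sets, where 4 were at least 1.2-fold lower and 41 members remained. Without such probe sets CDT1, MCM7, TPX2 and CDC25B dropped out, and CDKN2A with -0.23 and AURKA with 0.18 came within 1.2-fold. The floors leave the difference of a gene as it is and centring shifts it by little, so for single members the mean of probe sets was the alternative that could move a value most. Of the 23 members chosen by the rule for giving both array values, it moved 4 by more than the SD between probe sets. These were CDKN2B with -1.05, CDT1 with 0.03, MCM4 with -0.12 and NUSAP1 with -0.02. NUSAP1 then had the opposite sign to its brightest probe set. CDKN1C, outside that rule, also moved by more than that SD, from -0.18 to -0.40. Loess or median centring moved the split of all genes at 1.2-fold from 1122 lower and 1234 higher to 1357 and 853 or 1325 and 891, and that of the members from 8 and 4 to 9 and 3 under both.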
